A study of Mus musculus with 82 samples.

Results

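The cornified envelope genes of mouse skin were followed after whole-body X-rays. The set held every gene whose symbol begins with Lce or Sprr together with Lor, Ivl, Flg, Flg2, Hrnr, Rptn, Crnn, Tgm1, Tgm5, Casp14, Cnfn, Cdsn, Evpl, Ppl, Calm4 and Calml3, so that the genes were chosen by name. Of 54 mouse genes that meet this rule, 41 had a probe on the array and 13 were not analysed here, Flg and Crnn among them. These 41 genes were among 18690 genes with a probe, and each was represented by its probe of highest mean intensity over all arrays. Of the 41, 40 were tested: 14 Lce genes, 12 Sprr genes and 14 others. Sprr3 was above background on 1 of 82 arrays and was not tested.

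The cornified envelope is the protein shell that replaces the plasma membrane of a keratinocyte as it turns into a dead cell of the outer barrier. Involucrin, envoplakin and periplakin form a first scaffold under the membrane, loricrin and the small proline-rich (Sprr) and late cornified envelope (Lce) proteins thicken it, and transglutaminases cross-link all of them. Most of these genes lie side by side in the epidermal differentiation complex, and they are known to be switched on in the outer living layers of the epidermis.

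Male C57BL/6j mice received 0 (sham), 1, 3, 6 or 20 Gy, and a piece of dorsal skin was taken from each at 2 hours (h2) and at days 4, 7, 21 and 28 (d4 to d28), which gave 82 arrays of 24 mice in 23 groups. The sham mice went through the same transport, anaesthesia and biopsies without radiation, so that every group carries earlier biopsy wounds after h2. All mice were bought as young adults. From h2 to d28, the sham groups had 4, 4, 4, 2 and 2 arrays, the 1 Gy groups 4, 4, 2, 4 and 4, the 3 Gy groups 5, 5, 3, 4 and 3, and the 6 Gy groups 4, 4, 2, 3 and 4, while the 20 Gy groups had 4, 4 and 3 arrays up to d7, when these mice were killed at the humane endpoint. Each dose was given to its own mice and each mouse was biopsied repeatedly, so arrays of 1 dose at different times share mice, and all doses at a time point were compared with the same sham arrays. A level is the log2 ratio of biopsy RNA (Cy5) over a universal mouse reference RNA (Cy3), and a fold change is the difference of 2 such means. A gene was called higher or lower where limma's adjusted p was below 0.05 and the fold change was at least 2. The whole skin was measured, so fewer cells of a type and less RNA per cell cannot be told apart.

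The arrays were scanned on 2 scanners. All 11 arrays of 20 Gy, 8 of the 16 sham arrays and 6 others were scanned on scanner 1, and the remaining 57 on scanner 2. A single slide carried the 4 biopsies of 20 Gy at h2, and another the 4 at d4, so that slide and dose cannot be told apart for these groups. The choice of scaling moved many values, so each was computed under 5 scalings: loess within each array (the main one), plain median centring, the ratio of the scanner software, the Cy5 channel alone, and the deposited normalized table. In that table, the 8 columns of 20 Gy at h2 and d4 correlated at 0.0767 to 0.234 with the scanner values of their own arrays, over 12670 probes centred within each scanner, and 8 of 8 matched an array of 20 Gy at d7 best (0.506 to 0.564). The 3 columns of 20 Gy at d7 matched their own array best, at 0.542 to 0.584, as did 52 of 57 columns of scanner 2, but only 8 of the 14 other columns of scanner 1 did, with correlations to their own array of 0.208 to 0.684. Among these the sham columns of M001 and M005 at d7 (0.208 and 0.255) matched a 3 Gy array of d4 best (0.275 and 0.306). Without that centring the columns correlated more with their own arrays, by loess at 0.579 to 0.741 for the 8 of 20 Gy at h2 and d4, 0.704 to 0.8 for those of d7 and 0.597 to 0.975 on scanner 2, and the own column was the best match for 0 of 8, 2 of 3 and 46 of 57 arrays. Deposited values are therefore printed as what that table holds, and whether the columns named here belong to these arrays was not settled.

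Signal also differed with dose on scanner 1. At h2, 38.1 to 49.2% of probes were above background in Cy5 after 20 Gy and the median Cy5 signal was 29.5 to 32.7, against 51.5 to 61.5% and 46 to 62 on the 3 sham arrays of that scanner. At d4 these were 42.6 to 47.2% and 29 to 31, against 63 to 65.3% and 52.5 to 61. At d7, 43.2 to 50.5% and 22 to 26 stood against 46 to 48% and 23 on both sham arrays. The part of this dimmer signal in the results of h2 and d4 was not tested.

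Of the 41 genes, 32 lie on chromosome 3 (GRCm38.p6), from Lor, whose gene model starts at 92080271, to Rptn, which ends at 93399442. Tgm5 lies on chromosome 2, Cnfn on 7, Casp14 on 10, Evpl on 11, Calm4 and Calml3 on 13, Tgm1 on 14, Ppl on 16 and Cdsn on 17. Of the tested genes, 27 were above background on all 82 arrays, and no spot of a member was saturated. The tissue label was borne out by keratins of the epidermis, since Krt5, Krt14, Krt1 and Krt10 were above background on 82 of 82 arrays.

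Promoter sequences from RefSeq (GRCm38.p6) are shown for 4 members whose levels moved in different directions after 20 Gy, as the 250 bases before the start site, 5′ to 3′ on the gene's strand, with matches to TATAAA and to TGANTCA (an AP-1 site) on either strand in capitals. Ivl lies at chr3:92573736-92573985 on the minus strand, with an AP-1 match that begins 116 bases and a TATAAA match that begins 29 bases before the start. Lor lies at chr3:92083143-92083392 on the minus strand, with the matches at 48 and 27 bases. Lce1d lies at chr3:92687211-92687460 on the minus strand and has a TATAAA match at 30 bases and no AP-1 match in this window. Tgm1 has 2 listed promoters on the minus strand, at chr14:55713089-55713338 and chr14:55713493-55713742, and neither holds a match to these letters.
Ivl: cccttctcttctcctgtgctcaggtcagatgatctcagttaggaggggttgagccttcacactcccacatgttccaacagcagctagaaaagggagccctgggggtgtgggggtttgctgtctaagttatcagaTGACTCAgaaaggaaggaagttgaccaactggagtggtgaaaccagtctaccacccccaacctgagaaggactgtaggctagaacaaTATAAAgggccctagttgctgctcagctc
Lor: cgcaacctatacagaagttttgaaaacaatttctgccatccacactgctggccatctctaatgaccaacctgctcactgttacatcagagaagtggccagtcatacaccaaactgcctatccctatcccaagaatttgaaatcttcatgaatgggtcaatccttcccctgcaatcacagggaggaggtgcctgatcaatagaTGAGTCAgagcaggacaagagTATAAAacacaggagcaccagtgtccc
Lce1d: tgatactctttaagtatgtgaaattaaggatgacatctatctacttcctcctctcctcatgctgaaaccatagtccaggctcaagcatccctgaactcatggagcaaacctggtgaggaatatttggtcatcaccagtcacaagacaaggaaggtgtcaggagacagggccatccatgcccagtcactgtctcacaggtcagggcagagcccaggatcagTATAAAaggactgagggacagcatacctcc
Tgm1, promoter at 55713089: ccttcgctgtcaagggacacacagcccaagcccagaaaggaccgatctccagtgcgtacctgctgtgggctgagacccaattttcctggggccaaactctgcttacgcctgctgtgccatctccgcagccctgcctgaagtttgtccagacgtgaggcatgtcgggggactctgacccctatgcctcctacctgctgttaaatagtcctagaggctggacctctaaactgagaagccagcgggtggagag
Tgm1, promoter at 55713493: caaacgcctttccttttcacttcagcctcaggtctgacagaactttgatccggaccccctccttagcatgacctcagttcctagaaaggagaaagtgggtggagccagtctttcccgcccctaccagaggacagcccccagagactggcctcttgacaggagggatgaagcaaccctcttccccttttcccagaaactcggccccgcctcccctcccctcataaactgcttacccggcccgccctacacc
Promoters were listed for 35 member genes. Of their 37 promoters, 15 (40.5%) held TATAAA and 12 (32.4%) held TGANTCA, while among all 32851 promoters of the same length 12.4% and 6.75% did. A match describes these letters and not a bound site.

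At h2 after 20 Gy, 3 of 40 members were lower than in sham skin (7.5%, against 3.32% of all 30323 probes tested) and 2 were higher (5%, against 5.79%). The lower genes were the cross-linking enzyme Tgm1, the plakin Ppl and the small proline-rich gene Sprr2h, and the higher genes were Lor and Sprr2b. The median fold change of the 40 members was -0.23 on the log2 scale, against 0 over all probes, and 30 of the 40 lay below 0. At an unadjusted p below 0.05 with a fold change of 2, 4 members were lower (against 4.5% of all probes) and 2 higher (against 6.08%). Without irradiated mouse M022 the count of lower members was 1, where 2.42% of all probes were lower, and leaving out each of the 8 mice in turn left 2 to 3 higher ones, where 4.79 to 6.35% of all probes were higher.

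Among the enzymes, Tgm1, the membrane-bound transglutaminase that joins envelope proteins, had sham log2 ratios of 3.23, 2.91, 2.04 and 3.41 at h2 and 20 Gy values of 0.54, 0.13, 0.61 and 0.63. All 4 irradiated arrays lay below all 4 sham arrays. Its level fell by 2.42 ± 0.68 (SE, limma adjusted p = 0.00637), and within scanner 1 it fell by 2.25 (adjusted p = 3.45e-07). The fold change was below 0 under all 5 scalings, at -2.26 with median centring, -1.89 in the software ratio, -1.02 in the Cy5 channel and -0.46 in the deposited values. With the slide as a random block it was -2.47 and lost its call (adjusted p = 0.0596). Tgm5, another transglutaminase of the epidermis, and Casp14, a protease of cornifying cells, had fold changes of -0.96 and -1.08, neither called, and within scanner 1 both passed, at -1.23 and -1.23.

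The plakin Ppl, which ties the envelope to keratin filaments, had sham values of 3.43, 3.5 and 3.2, the fourth sham spot having been left out as an outlier, against 1.67, 0.81, 1.96 and 1.61 after 20 Gy. The groups did not overlap, and Ppl fell by 1.86 ± 0.57 (adjusted p = 0.0137), with -0.53 to -3.54 under the other scalings. It lost its call with scan day as a block (adjusted p = 0.085) and with the slide as a random block (adjusted p = 0.118). Its partner Evpl had a fold change of 0.88 at h2 (adjusted p = 0.125), whereas a dimmer probe of Evpl gave -2.23 (adjusted p = 0.0171), so the probes of this gene disagreed. Sprr2h rested on a single sham mouse: the sham values were 0.77, 0.49, 0.04 and 3.69, against -0.14, -0.03, -0.01 and 0.04, with 0 of 4 irradiated arrays above background. Its call (-1.28 ± 0.48, adjusted p = 0.0414, at least 2.32-fold lower) was lost within scanner 1, which leaves out that mouse and where the fold change was -0.47. The biopsy of that mouse, M002, also stood apart in the list of growing hair follicle genes, whose mean log2 ratio was 6.42, against -0.01 to 0.42 on the other sham arrays and 0.01 to 0.29 after 20 Gy. Without M002, 3 members were lower at h2 (against 3.98% of all probes) and 3 higher (against 6.35%).

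Lor, the main protein of the mature envelope, had sham values of 6.86, 6.71, 6.34 and 5.64 at h2 and values of 7.89, 7.68, 8.42 and 7.74 after 20 Gy. The groups did not overlap, and Lor was higher by 1.54 ± 0.45 (adjusted p = 0.00963) by loess and by 3.22 in the software ratio, but the fold change was -1.05 with median centring, -0.26 in the Cy5 channel and -1.58 in the deposited values. Sprr2b, a small proline-rich cross-bridging gene, had sham values of 1.06, 0.31, 0.7 and 1.04 against 2.44, 1.18, 2.3 and 2.26. All 4 irradiated values lay above the sham values, with a fold change of 1.27 ± 0.33 (adjusted p = 0.00329), yet it was -0.68 with median centring and -0.21 in the deposited values. Both were called within scanner 1 (1.29 for Lor and 1.35 for Sprr2b) and lost their calls with the slide as a random block (adjusted p = 0.0559 and 0.0516).

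The other members at h2 did not pass in the main fit with their brightest probe. Within scanner 1, Ivl, Hrnr and Cdsn were also called lower and Evpl higher, where 6.18% of all probes were lower and 6.83% higher. Ivl, the scaffold protein laid down first, had a fold change of -1.95 (adjusted p = 0.124), and its sham values of 2.79, 2.58, 1.51 and 3.52 lay above the 20 Gy values of 0.66, 0.16, 1.01 and 0.76. Of the S100 fused-type proteins, which belong to the filaggrin family, Hrnr stood at -2.16, Rptn at -0.81 and Flg2 at -0.22. The 14 Lce genes had a median of -0.34, 11 of them below 0, with Lce1c at -1.02 and Lce1e and Lce1h at -0.94 each. Cdsn, the corneodesmosin that holds cornified cells together, stood at -1.10, the calmodulin-like genes Calm4 and Calml3 at -0.22 and -0.90, and cornifelin (Cnfn) at 0.32. A dimmer probe of Calm4 passed as lower (-2.12, adjusted p = 0.048), and at d4 it gave -1.39 (adjusted p = 0.182) against 0.4 for the brighter one, so the probes of this gene disagreed too.

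**Figure D1:**
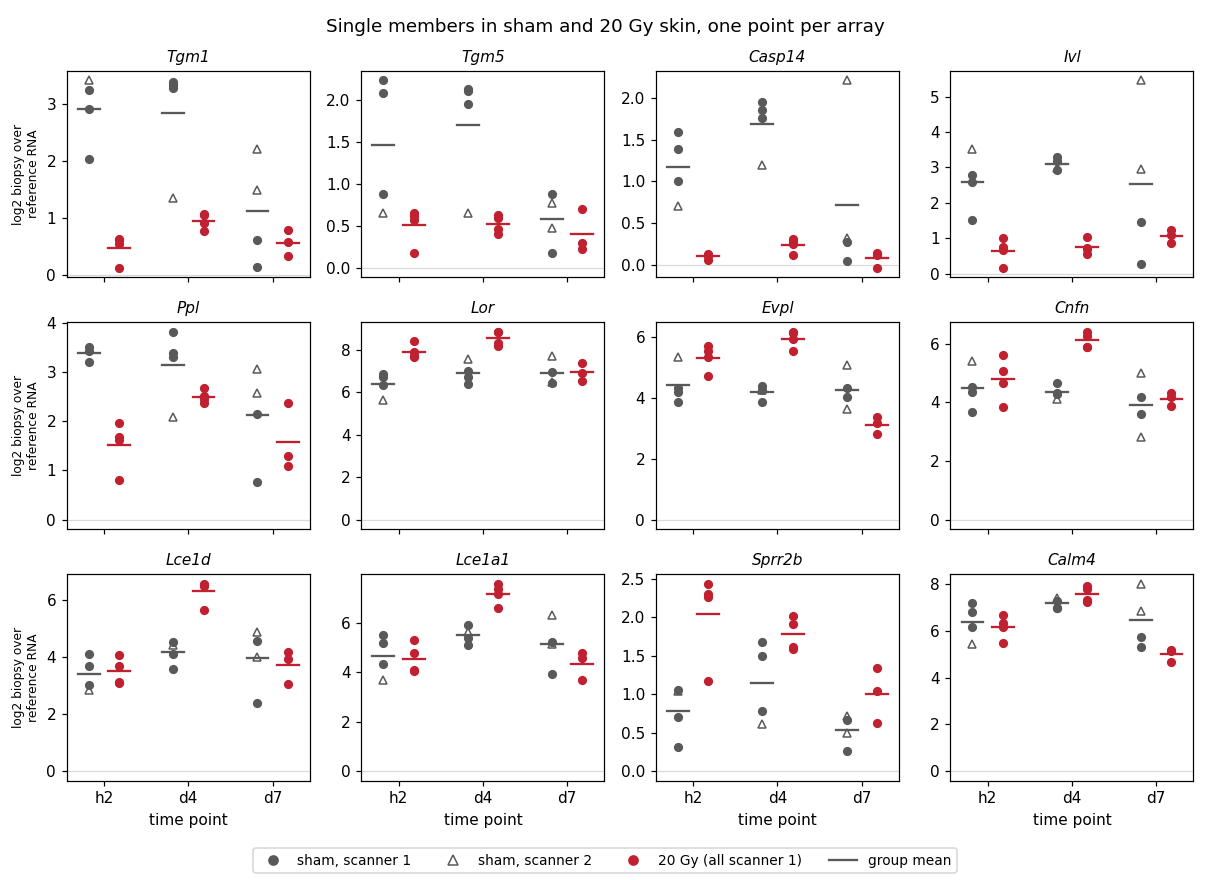
Log2 ratio of biopsy over reference RNA for 12 cornified envelope genes in sham and 20 Gy skin at h2, d4 and d7. Each point is an array (circles scanner 1, triangles scanner 2); Tgm1 lay at 0.13 to 0.63 after 20 Gy at h2 and at 2.04 to 3.41 in sham skin.

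At d4, the members went both ways: 5 of 40 were lower after 20 Gy (12.5%, against 5.1% of all probes) and 5 were higher (12.5%, against 6.08%). The lower genes were the enzymes Tgm1, Tgm5 and Casp14 and the structural genes Ivl and Rptn, and the higher genes were Lce1a1, Lce1d, Lor, Evpl and Cnfn. The median over the members was 0.18, against -0.02 over all probes, and 18 lay below 0. At an unadjusted p below 0.05 with a fold change of 2, 5 members were lower (against 5.91% of all probes) and 6 higher (against 6.34%). In all 10 called members the irradiated and sham arrays did not overlap. These members were picked by the test on the same arrays, and the share of all probes without overlap was not computed. The count of lower members changed with each mouse left out. It was 4 without sham mouse M002 and 1 without sham mouse M005. Without any of the other sham mice (M001 and M004) or of the irradiated mice (M021 to M024) it was 0. In these fits 3.87 to 5.91% of all probes were lower. The count of higher members was 3 without M001, M002, M004, M022 or M023, 4 without M005 or M024 and 6 without M021, where 5.11 to 7.1% of all probes were higher.

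All 3 enzymes were called lower at d4, with a median of -1.46. Tgm1 had sham values of 3.32, 3.38, 3.28 and 1.35 against 0.77, 1.07, 1.05 and 0.92, a fall by 1.88 ± 0.68 (adjusted p = 0.0283). Casp14 had 1.76, 1.96, 1.86 and 1.2 against 0.11, 0.28, 0.25 and 0.31, a fall by 1.46 ± 0.54 (adjusted p = 0.0335). Tgm5 had 1.95, 2.11, 2.13 and 0.65 against 0.59, 0.4, 0.63 and 0.46, a fall by 1.19 ± 0.46 (adjusted p = 0.0399). In each of these genes the last sham value, that of the only sham mouse scanned on scanner 2, was the lowest sham value. Within scanner 1 the fold changes were -2.37 for Tgm1, -1.62 for Casp14 and -1.54 for Tgm5, all called, and each gene lay below sham under all 5 scalings, Tgm5 by as little as -0.05 in the Cy5 channel. With the slide as a random block none of them passed (adjusted p = 0.135, 0.168 and 0.207). Each kept its call in 1 of 8 fits that left out a mouse.

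Ivl had sham values of 2.94, 3.31, 3.17 and 2.99 at d4 and 20 Gy values of 0.54, 0.7, 1.02 and 0.71. The lowest sham array stood well above the highest irradiated array, and the fold change was -2.36 ± 0.95 (adjusted p = 0.0478) and -0.53 to -2.11 under the other scalings. Its sham level at d4 was tight, but Ivl varied widely in other groups, which share the residual variance of the fit. Ivl lost its call in 8 of 8 fits that left out a mouse. Rptn had 1.69, 2.3, 0.48 and 0.33 against -0.13, 0.02, -0.02 and -0.02 (-1.24 ± 0.47, adjusted p = 0.0376). With 0 of 4 irradiated arrays above background, its fall has only a bound, at least 1.93-fold. That bound lies under the fold change of 2 that a call asks for. Rptn kept its call in 2 of those 8 fits. With the slide as a random block neither Ivl nor Rptn passed (limma adjusted p = 0.132 and 0.199). Ivl also lost its call with the scanner as a block (limma adjusted p = 0.066). Hrnr stood at -1.32 and Flg2 at -0.79, neither called, and both were called lower within scanner 1.

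Lce1d, a late envelope gene, had sham values of 4.1, 3.6, 4.55 and 4.43 at d4 and 20 Gy values of 5.67, 6.58, 6.52 and 6.49, a fold change of 2.15 ± 0.51 (adjusted p = 0.00103). Lce1a1 had 5.38, 5.12, 5.92 and 5.61 against 6.61, 7.58, 7.35 and 7.16, a fold change of 1.66 ± 0.65 (adjusted p = 0.0409). The irradiated arrays were all higher in both, and Lce1d was also above 0 with median centring (0.4), in the software ratio (3.47) and in the Cy5 channel (1.59), with only the deposited table, whose columns for this group matched other arrays, at -0.68. Lce1a1 was at -1.2 there and at -0.04 with median centring. Lce1d kept its call in 8 of 8 fits that left out a mouse, and Lce1a1 in 1 of 8. Lce1i and Lce1f had fold changes of 1.64 (adjusted p = 0.053) and 1.4 (adjusted p = 0.144). Over the 14 Lce genes the median was 0.87, with 2 genes below 0. That median was 2.86 in the software ratio and 0.87 in the Cy5 channel, but -0.05 with median centring and -0.26 in the deposited values.

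Lor had 6.71, 6.4, 7 and 7.59 in sham skin at d4 and 8.21, 8.86, 8.85 and 8.33 after 20 Gy, a fold change of 1.64 ± 0.45 (adjusted p = 0.00483) that was -0.25 with median centring, -0.65 in the Cy5 channel and -1.59 in the deposited values. Evpl had 4.26, 3.87, 4.4 and 4.25 against 5.94, 6.14, 6.17 and 5.55, a fold change of 1.75 ± 0.43 (adjusted p = 0.00133) that was -0.14 with median centring and -1.59 in the deposited values. Its dimmer probe gave -1.22 (adjusted p = 0.186), and with the mean of both probes the fold change was 0.27 (adjusted p = 0.734). Cnfn had 4.3, 4.28, 4.66 and 4.1 against 5.9, 6.4, 6.26 and 5.87, a fold change of 1.78 ± 0.65 (adjusted p = 0.0295) that was 0.06 with median centring, 3.4 in the software ratio, 1.83 in the Cy5 channel and -0.73 in the deposited values. By loess the irradiated arrays of these genes all stood above the sham arrays. Within scanner 1 the values were 1.86 for Lor, 1.77 for Evpl, 1.7 for Cnfn and 2.23 for Lce1d, all called. With the slide as a random block Lce1d (adjusted p = 0.0221), Lor (0.0306) and Evpl (0.0429) passed, and Cnfn and Lce1a1 did not (0.173 and 0.154). Lor and Evpl kept their calls in 8 of 8 fits that left out a mouse, and Cnfn in 3 of 8.

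Fold changes at d4 went with brightness among the members. The members called lower at d4 had mean log2 intensities of 7.11 (Rptn) to 8.01 (Ivl). Those called higher had 9.46 (Cnfn) to 12.57 (Lor), so the called genes split by brightness without overlap. The 19 members with a mean log2 intensity of at least 9 had a median of 0.86 and the 21 dimmer ones of -0.1, with r = 0.507 and rho = 0.61 across the 40 members, against r = 0.0432 across all probes. At h2 the medians were -0.22 and -0.78, with r = 0.323. These correlations are across genes of the same arrays, which share slide, reference and scaling, and the part of brightness in the result was not tested.

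At d7, no member was called in either direction, while 0.623% of all probes were lower and 1.21% higher. The lowest adjusted p by limma was 0.192, 3 members were lower at an unadjusted p below 0.05 with a fold change of 2 (against 1.25% of all probes), and none was higher (against 1.57%). The median was -0.29, against 0.02 over all probes, and 30 of 40 members lay below 0. Within scanner 1 and with scan day as a block the median was instead 0.08, with 16 of 40 below 0. Tgm1 stood at 0.79, 0.58 and 0.34 after 20 Gy, and its sham values of 0.14, 0.62, 2.21 and 1.49 spanned that range. The 2 lower sham values were scanned on scanner 1, as the 20 Gy arrays were, and the 2 higher ones on scanner 2. The fold changes were -0.54 for Tgm1, -1.48 for Ivl, -1.15 for Evpl, -1.48 for Calm4, -1.93 for Calml3, -1.31 for Sprr1a, -1.39 for Sprr4 and -1.34 for Lce1c, none called. Lor stood at 0.05 and Flg2 at 0.43. In the deposited values 7 members were lower (17.5%, against 2.35% of all probes). There the 20 Gy columns, but not those of sham mice M001 and M005, matched their own arrays best. Under all 5 scalings 21 of 40 members lay below 0 and 3 above, and the share of all probes that did so was not computed.

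The test of the change in the 20 Gy effect from h2 to d7 called 1 member, against 5.57% of all probes in either direction. It was Evpl (-2.03 ± 0.63, adjusted p = 0.0313), at 0.88 at h2 and -1.15 at d7. The difference was 0.75 with median centring, and the dimmer probe of Evpl stood at -2.23 and -1.46 at these times. Without M001, M004, M005, M021, M023 or M024 no member was called.

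**Figure D2:**
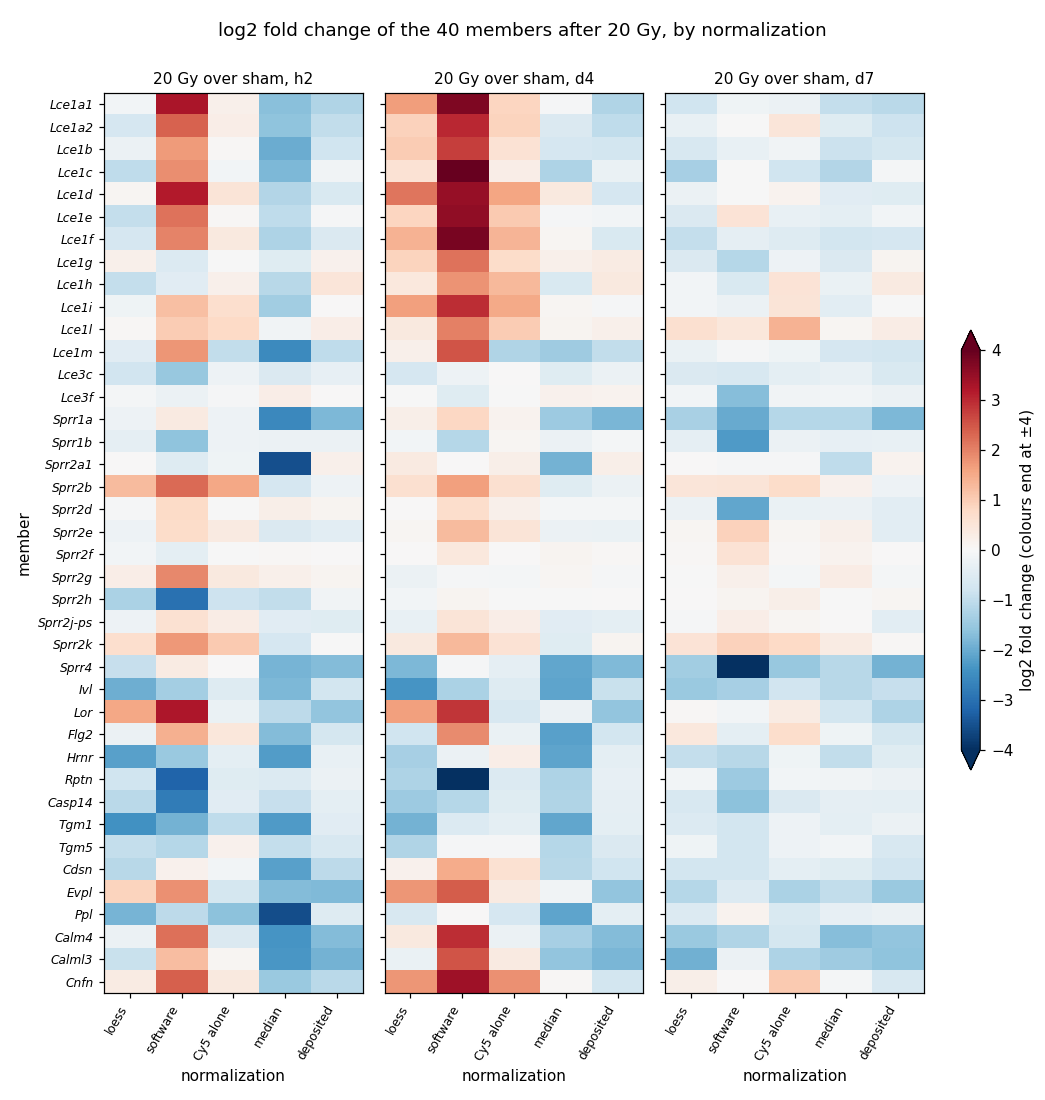
Heat map of log2 fold change of 20 Gy over sham for 40 cornified envelope genes (rows) under 5 scalings (columns) at h2, d4 and d7. Rows of the enzymes keep their sign across columns at d4, whereas Lor, Evpl and many Lce rows change sign between the software ratio and the deposited values.

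The counts moved with the scaling. At h2, loess gave 3 members lower and 2 higher, and the Cy5 channel 2 (5%, against 3.43% of all probes) and 2 (5%, against 5.1%). The deposited values gave 9 lower (22.5%, against 2.22%) and 0 higher (against 1%). The software ratio gave 7 lower (17.5%) and 18 higher (45%), where 24.6% and 17.1% of all probes were called, and median centring 18 lower (45%) and 0 higher, where 36.7% and 0.274% were. Much of the whole array was thus called under those 2 scalings, and the lower share of the members under median centring lay near that background. At d4 the Cy5 channel gave 1 lower and 6 higher (against 2.8% and 3.83%) and the deposited values 8 and 0 (against 2.27% and 0.831%). The software ratio gave 2 and 22 (against 21.4% and 15.7%) and median centring 10 and 0, its 25% lower standing against 25.5% of all probes. The members' median at d4 ran from -0.50 with median centring to 1.39 in the software ratio, where the median over all probes lay at -0.42 and -0.20. Under all 5 scalings, 9 members lay below sham at h2 (Lce3c, Sprr1b, Sprr2h, Ivl, Hrnr, Rptn, Casp14, Tgm1 and Ppl) and 7 at d4 (Lce3c, Sprr4, Ivl, Rptn, Casp14, Tgm1 and Tgm5). Above sham under all 5 lay Sprr2g at h2 and Lce1g and Lce1l at d4, none of them called by loess. The share of all probes that kept a sign under all 5 scalings was not computed. The scalings start from the same arrays, so these counts are not 5 separate checks. Of the genes called higher by loess, Lce1d and Cnfn at d4 lay above sham in each scaling but the deposited table, and the others lay below it with median centring as well. The columns of that table for 20 Gy at h2 and d4 matched arrays of d7 best, so its values there are not a clear test of the scaling.

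Other genes of the same program were read from lists of related functions. Their counts stand beside shares of all probes of 3.32% lower and 5.79% higher at h2 and of 5.1% and 6.08% at d4, and in lists this short a count of 1 gene cannot be told from such a share. Of 17 tested regulators of epidermal differentiation, 9 were lower and 1 higher after 20 Gy at h2, with a median of -1.33, and 6 were lower and none higher at d4. Trp63, the master regulator of the epidermis, had fold changes of -2.77 (adjusted p = 0.0265) and -2.5 (adjusted p = 0.0368), below 0 under all 5 scalings at both times. Klf4, a factor needed for the skin barrier, was higher at h2 (1.42, adjusted p = 0.00324), with the same sign in 3 of 5 scalings. Among 11 desmosome genes, 2 were lower and 1 higher at h2, and 2 and 2 at d4, with Dsg1a at -3.43 and -3.6 and Perp at -1.59 and -1.01, below 0 under all 5 scalings, and Dsg1b at 3.31 and 3.37, above 0 in 4 of 5. Dsg1a and Dsg1b encode near-identical cadherins, and whether their probes tell the transcripts apart was not tested.

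Of 14 barrier lipid enzymes, 1 was lower at h2 and 2 at d4, Cyp4f39 at both (-1.96 and -2.19), and none was higher. Of 11 barrier proteases and inhibitors, 3 were lower and 1 higher at each time, the protease Prss8 at -1.91 and -1.77 and the protease inhibitor Cst6 at 1.89 and 1.67, Cst6 with this sign in 2 of 5 scalings. Of 8 other linked envelope proteins, 1 was lower and 1 higher at h2, and 1 and 2 at d4. Of 4 stress keratins, 2 were higher at h2, Krt6b (2.62) and Krt17 (2.56), and 1 at d4, Krt17 (2.54), and none was lower. Krt6b had the same sign in 4 of 5 scalings at h2, and Krt17 in 2 at h2 and 4 at d4. Krt6a stood at -1.05 and -1.03, and Krt16 at -0.25 and -0.49. At d7 none of these lists had a gene lower, and 1 gene, among the proteases, was higher.

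Markers of other cell types moved as well. Of 12 marker lists, the mean log2 ratio over the list did not overlap between 20 Gy and sham skin in 3 at h2, 3 at d4 and 4 at d7. At h2 these were skeletal muscle, 6.61 to 7.22 after 20 Gy against 5.23 to 6.55 with 3 of 8 genes called higher, endothelium, 0.19 to 0.73 against 1.29 to 2.54, and melanocytes, 0.36 to 0.82 against 0.85 to 2.22. At d4 they were endothelium, 0.53 to 0.85 against 2.5 to 3.71 with 5 of 6 genes lower, Langerhans and dendritic cells, 0.82 to 0.91 against 2 to 2.53, and erythroid genes, 1.03 to 1.24 against 2.11 to 2.53. At d7 they were fibroblasts, 0.25 to 0.51 against 2.39 to 3.79 with 5 of 8 genes lower, sebaceous gland, 0.01 to 0.27 against 1 to 2.32, Langerhans and dendritic cells, 0.13 to 0.38 against 1.1 to 2.16, and melanocytes, 0.05 to 0.2 against 0.28 to 0.87. The 12 lists shared no single direction, muscle being higher and the other lists named lower. Of all probes, 3.32% were lower and 5.79% higher at h2, and 5.1% and 6.08% at d4. At d7 these shares were 0.623% and 1.21%. The called counts of these lists and of those of the epidermis stand beside these shares. How often such groups do not overlap over all probes was not computed.

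The lists of the epidermis itself overlapped at all 3 times. Of 8 basal epidermis genes, 1 was lower at h2 and d4, Trp63, and 2 were higher at h2 and 3 at d4, Krt5 and Krt15 at both times and Krt14 at d4. At d7 Krt14 was lower (-1.12, adjusted p = 0.0294) and none higher. Of 8 genes of the spinous and suprabasal layers, where the envelope is prepared, 1 was lower and 1 higher at h2, 1 lower and 2 higher at d4, and 1 lower at d7 and none higher, with a median of -0.38. That gene was the keratin Krt1 (-3.82, adjusted p = 0.0101), while Krt10 stood at -0.48, Krtdap at -0.27, Dsc1 at -0.14 and Sbsn at 0.3. The part of these cell types in the envelope genes' values was not tested.

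The lethal dose was also set directly against 6 Gy. At h2, 4 members were higher after 20 Gy (Sprr2b 1.85, Sprr2k 1.12, Lor 1.29 and Evpl 1.89; adjusted p = 2.72e-05, 0.000783, 0.0485 and 0.000928) and none lower, where 3.96% of all probes were higher and 1.18% lower. At d4, 6 were higher (Lce1d 2.26, Cnfn 2.03, Lce1a1 1.91, Lor 1.65, Evpl 1.62 and Sprr2b 1.25) and none lower, against 4.08% and 1.3% of all probes. All of these genes but Sprr2k lay below 0 in the deposited values, Lor also with median centring and in the Cy5 channel at both times, and Evpl with median centring at d4 (-0.34). At h2, Sprr2b stood at -0.01 to 0.45 in 6 Gy skin and at 1.18 to 2.44 in 20 Gy skin. At d4, Lce1d stood at 3.24 to 4.7 and at 5.67 to 6.58, so that neither overlapped. All 20 Gy arrays were scanned on scanner 1 and 3 of the 4 arrays of 6 Gy at each of these times on scanner 2. With the scanner as a block, Sprr2k at h2 (0.9) and Sprr2b at d4 (0.97) lost their calls. With the slide as a random block, Lor at h2 and Cnfn, Lce1a1 and Sprr2b at d4 did (adjusted p = 0.132, 0.113, 0.104 and 0.0645). With the mean of all probes of a gene, Evpl stood at 0.64 at h2 and 0.41 at d4 and lost both calls (adjusted p = 0.482 and 0.685), and Lor lost its call at h2 (0.0535). In fits that left out a mouse, Lor at h2 kept its call in 2 of 8. At d4, Lce1a1 kept its call in 3 of 8, Cnfn in 4 and Lor in 7. The other calls at h2 and d4 were kept in 8 of 8. The members' medians were -0.27 and 0.47.

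At d7, Calm4, a calmodulin-like gene of the epidermis, was lower by limma after 20 Gy than after 6 Gy (1 of 39 members, where 1.34% of all probes were lower and 2.43% higher). Its values were 5.19, 5.13 and 4.67 in 20 Gy skin against 7.62 and 7.76 in 6 Gy skin, a fold change of -2.7 ± 0.76 (adjusted p = 0.0168) that stayed below 0 under all 5 scalings. The 20 Gy arrays were scanned on scanner 1 and both 6 Gy arrays on scanner 2, and the fold change was -1.96 with the scanner and -0.79 with scan day as a block, without a call. The call was also lost without M018, M020 or M024 (adjusted p = 0.173, 0.0974 and 0.0793).

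**Figure D3:**
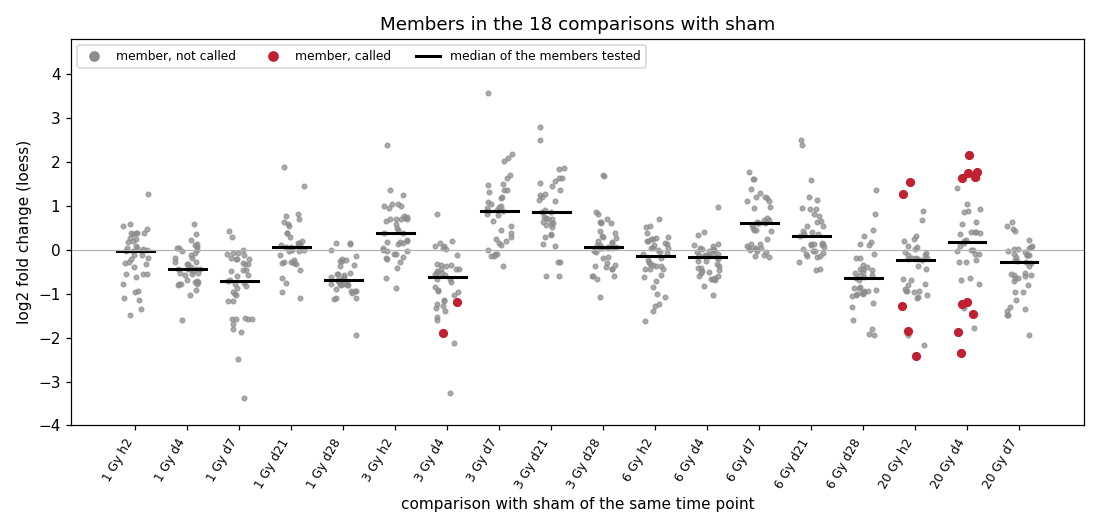
Log2 fold change of each tested cornified envelope gene over sham in 18 comparisons of dose and time, with called genes in red and a line at the median. The medians run from -0.71 (1 Gy, d7) to 0.89 (3 Gy, d7), and called genes appear at 20 Gy (h2 and d4) and 3 Gy (d4).

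After the sublethal doses, limma called members in 1 of 15 comparisons, 3 Gy at d4, where 2 of 40 were lower (5%, against 3.34% of all probes) and none higher (against 1.92%). Tgm1 stood at 0.38, 0.56, 2.7, 0.19 and 0.84 after 3 Gy, against the sham values of 3.32, 3.38, 3.28 and 1.35 (-1.9 ± 0.64, adjusted p = 0.0358). Tgm5 stood at 0.03, 0.53, 1.66, 0.06 and 0.27, against 1.95, 2.11, 2.13 and 0.65 (-1.2 ± 0.44, adjusted p = 0.0473). In both the third irradiated mouse, M013, lay within the sham range. Without M013 7 members were lower, where 5.74% of all probes were, and without sham mouse M002 5, where 5.32% were, whereas without sham mouse M001, M004 or M005 or irradiated mouse M011, M012, M014 or M015 none was, where 0 to 2.29% of all probes were. The direction held with median centring (-1.74 and -1.14) but Tgm1 was above 0 in the software ratio (0.29), the Cy5 channel (0.01) and the deposited values (0.66), and Tgm5 in the latter pair (0.07 and 0.53). The dimmer probe of Evpl also passed as lower (-1.9, adjusted p = 0.0439), against -0.32 for the brighter probe that stands for the gene. With the scanner as a block neither gene was called (adjusted p = 0.112 and 0.162), and 0.00989% of all probes were lower and 0% higher in place of 3.34% and 1.92%. Within scanner 2, with 1 sham array, the fold changes were -0.28 and -0.02, and within scanner 1, with 1 irradiated array, -2.94 and -2.03. That latter fit describes the single biopsy of M011 and takes its spread from other groups. The mean over the members was 1.18 in M011, against 1.74 to 3.02 on the other arrays of 3 Gy at d4.

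No member was called in the other 14 sublethal comparisons. Of all probes, none was called for 1 Gy at h2, d4, d7 and d21 or for 3 Gy at h2, d7 and d21 or for 6 Gy at h2 and d21 (0%), and 0.0165% were for 1 Gy at d28, 0.00993% for 3 Gy at d28, 0.0396% for 6 Gy at d4, 0.0066% for 6 Gy at d7 and 0.0198% for 6 Gy at d28. At an unadjusted p below 0.05 with a fold change of 2, 8 of 38 members were higher after 3 Gy at d7 (against 1.73% of all probes) and 6 of 37 after 3 Gy at d21 (against 0.346%), while 3 of 40 were lower after 1 Gy at d7 (against 0.578%) and 4 of 40 after 6 Gy at h2 (against 0.686%), with at most 1 in each of the rest. The number of members with a value was 36 to 40, since spots left out as outliers left Lce1b, Lce1c, Flg2 or Ppl without a value in whole groups, 4 times in groups of 2 arrays, 2 times in groups of 3 and 4 times in groups of 4.

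The medians of the members nevertheless spread widely. After 1 Gy they were -0.03 at h2, -0.43 at d4, -0.71 at d7 (38 of 40 below 0), 0.07 at d21 and -0.69 at d28 (35 of 39 below 0). After 3 Gy they were 0.38, -0.62, 0.89 (6 of 38 below 0), 0.85 (4 of 37 below 0) and 0.07. After 6 Gy they were -0.14, -0.16, 0.6, 0.31 and -0.64 (33 of 40 below 0). Several of these medians turned with the scaling. In the deposited values, the software ratio and the Cy5 channel, the median after 1 Gy was 0.77, 0.52 and 0.25 at d4 and 0.56, 0.58 and 0.1 at d7. After 3 Gy at d4 it was 0.56 (1 of 40 below 0), 0.39 and 0.58 (4 of 40 below 0 in each), and after 6 Gy at d4 0.3, 0.36 and 0.31, while median centring kept the direction of loess at each of these. At d28 the medians after 1 and 6 Gy stayed below 0 under all 5 scalings, as those after 3 and 6 Gy at d7 and after 3 Gy at d21 stayed above it. The members share arrays and vary together, so such a median is the value of few arrays rather than of 40 independent genes. At d28 the growing hair follicle list stood at 1.25 and 0.55 on the sham arrays, 0.1 to 0.36 after 1 Gy, 0.73 to 5.55 after 3 Gy and 3.71, 0.11, 3.79 and 4.14 after 6 Gy, and it was above 1 on 13 of all 82 arrays. The part of the hair cycle in the medians was not tested. For hornerin (Hrnr) the scalings differed in direction after 3 Gy at d4, where loess gave -1.27 and the deposited values 2.03.

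**Figure D4:**
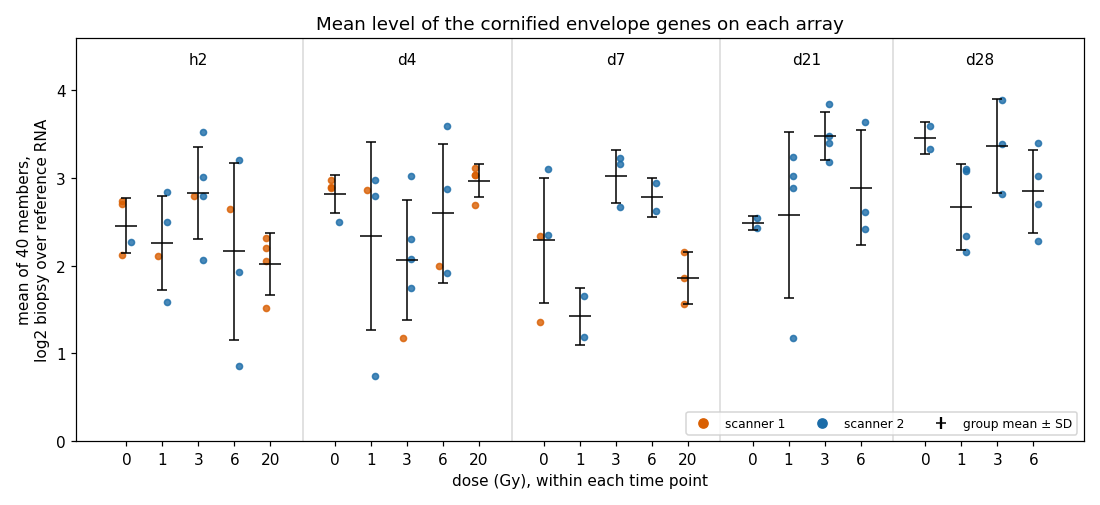
Mean log2 ratio of 40 cornified envelope genes on each of 82 arrays, by dose within each time point, coloured by scanner, with group mean ± SD. Single arrays run from 0.74 to 3.89, and the 20 Gy arrays at d4 (2.69 to 3.12) lie within or near the sham range (2.5 to 2.98).

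The spread between mice was large. The residual SD of the members had a median of 0.84, from 0.2 to 1.75, against 0.28 over all tested probes, and it was above 1 in 25% of the members and in 2.4% of the probes. The mean over the members ran from 0.74 to 3.89 on single arrays, and group means from 1.42 (1 Gy, d7) to 3.48 (3 Gy, d21). At h2 the mean was 1.52 to 2.32 after 20 Gy and 2.12 to 2.74 in sham skin, so that these groups overlapped. At d7 it was 1.56 to 2.16 and 1.36 to 3.1.

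Members varied together by family. After removal of the group means, the 66 pairs of Lce1 genes had a median r of 0.81 across the 82 arrays, with 57 above 0.5. The 36 pairs of Sprr2 genes had a median of 0.512, whereas the 108 pairs of an Lce1 with an Sprr2 gene had 0.0879 and none above 0.5. Lce1 genes paired with the 14 members outside the Lce and Sprr families at 0.65 over 168 pairs, and the 2 Lce3 genes paired with Sprr2 genes at 0.54 over 18 pairs. The median over all 780 pairs was 0.405. These are descriptions over arrays that share mice, slides and reference RNA, and since Lce1 and Sprr2 genes are near-identical copies, cross-hybridization between their probes was not tested.

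**Figure D5:**
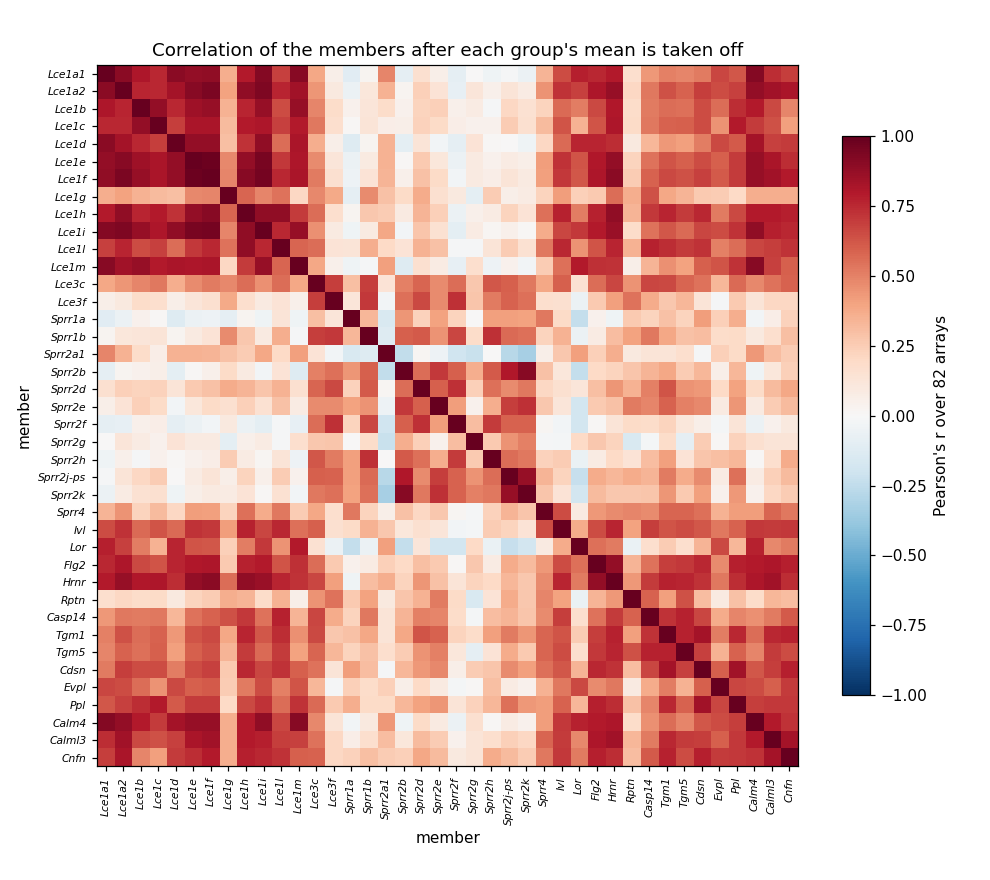
Heat map of the correlation between members across 82 arrays after removal of group means, ordered by family. The Lce1 block has a median r of 0.81, the Sprr2 block of 0.512, and the rectangle between them of 0.0879.

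Of the genes outside the set, those whose pattern over the 82 arrays was most like the mean of the 27 members detected on all arrays were Cysrt1 (r = 0.955), Kprp (0.934), Hal (0.926), Pla2g2f (0.92) and Ly6g6e (0.915). After removal of the group means these values were 0.945, 0.832, 0.952, 0.91 and 0.941. Of the members, 7 had a second probe, and the probes of Lce3c (r = 0.963), Lce1b (0.921), Hrnr (0.892) and Calm4 (0.872) had the highest correlations over all arrays, although those of Calm4 differed in the 20 Gy effect at h2 and d4. The correlation was 0.529 for Evpl, 0.229 for Lce1g and -0.0898 for Sprr2a1.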

How the data were processed

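The authors hybridized skin RNA of each biopsy (Cy5) with a universal mouse reference RNA (Cy3) on 2-colour Agilent arrays, without a dye swap, and extracted them with Agilent Feature Extraction (11.0.1.1 per the submitters' processing notes). The file headers name 2 scanner models and software versions, 11.0.1.1 for 25 arrays and 10.10.1.1 for 57. The deposited median spot intensity of both channels and its local background were not normalized. The deposited log10 ratio is that of Cy5 over Cy3 as the scanner software computed it after subtracting background and normalizing dyes. A further deposited table holds the authors' normalized log2 values, whose steps are not given in the sources used here. Its columns were set against the scanner values; its centring stays unknown.

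From the 45018 spots of each array, 1639 control spots and 25056 values marked as outliers (0.704%) were left out, after normexp background correction (offset 50) and loess within arrays. Saturated spots were kept, and spots of a probe were averaged. Tests took in the 30323 of 41174 probes whose Cy5 signal was well above background on 50% or more of the arrays in any group. A bound for a dim probe sets the brighter group's mean against the lowest signal well above background, and is open to dye bias. Accessions were named through RefSeq genes of GRCm38.p6, which gave 27572 probes a symbol. Fits were made by limma 3.58.1 (with statmod 1.5.0) in R 4.3.3, with a mean for each of the 23 groups and Benjamini-Hochberg adjustment over all probes tested.

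The members and the gene lists were chosen with earlier results of these data known. The genes given with values are the fixed genes of the set, the 5 Lce or Sprr genes with the largest change at each time after 20 Gy, and called members, with examples of called genes from the other lists chosen after their values were seen. Mice were matched by the identity in the labels: each mouse belongs to 1 dose, so no comparison between doses is paired, and the mouse was tried as a random block (correlation 0.119), as was the slide (0.269). Alternatives were the scaling, the filter on dim probes, scanner, scan day, slide and mouse as blocks, each scanner alone, all sham arrays as control, the mean of all probes of a gene, and leaving out each mouse in turn.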

Additional observations from a re-analysis of the deposited data

Results flagged for a closer look

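In 12 of 120 group means of the members or of a family, the highest or lowest array stood apart from the others of its group. Chance gives about 1 in 20 for a single mean. These means share arrays and members, so the count is not a test of an excess. The mean log2 ratio over all members was 0.74 in mouse M009 after 1 Gy at d4 (the other arrays 2.79 or more) and 1.18 in mouse M007 after 1 Gy at d21 (2.89 or more). The M007 array also stood low in skeletal muscle genes (1.65, the others 5.52 to 6.37) and adipocyte genes (1.05, the others 4.32 to 5.37), and at 4.43 in growing hair follicle genes (the others 0 to 3.87). The part of these tissues in its envelope mean was not tested. M009 was also low in the Lce genes (1.1) and in the plakins with corneodesmosin (1.04), and M007 in the Lce genes (1.41). After 3 Gy at d4, mouse M013 was high in the Sprr genes (1.2) and in the enzymes (2.15). The Lce genes were low in M021 after 20 Gy at d4 (3.62), the S100 fused-type genes in M014 after 3 Gy at h2 (2.52) and the enzymes in M022 after 20 Gy at h2 (0.12). In sham skin the enzymes were low in M002 at d4 (1.07), the only sham array of that time on scanner 2, and the group of Calm4, Calml3 and Cnfn in M005 at h2 (4.57). Of 377 single genes in a group, 36 had an array that far from the rest.

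The other flagged values are tested differences between effects, all on the log2 scale by loess. The 20 Gy effect on Evpl was lower at d7 than at h2 by limma (-2.03). Relative to 6 Gy, 20 Gy skin differed at h2 in Sprr2b (1.85), Sprr2k (1.12), Lor (1.29) and Evpl (1.89), at d4 in Lce1a1 (1.91), Lce1d (2.26), Sprr2b (1.25), Lor (1.65), Evpl (1.62) and Cnfn (2.03), and at d7 in Calm4 (-2.7). All of these except Sprr2k and Calm4 had the opposite sign in the deposited values.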

How the results depend on the processing

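The mouse as a random replicate block left the counts unchanged for the members lower and higher than sham after 20 Gy at h2 (3 and 2), d4 (5 and 5) and d7 (0 and 0), and changed no call count in the other comparisons by more than 1.5 times. No paired analysis between doses was possible because each mouse received 1 dose.

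The shares of all probes called lower at h2 after 20 Gy were 2.22% in the deposited values, 24.6% in the software ratio and 36.7% with median centring, and 2.27%, 21.4% and 25.5% at d4. The members called lower at h2 were 9 in the deposited values, 7 in the software ratio, 18 with median centring, 7 within scanner 1 (17.5%, against 6.18% of all probes), 0 with the slide as a random block (against 1.62%) and 8 with all sham arrays as control (20%, against 3.2%). Those higher were 0, 18 and 0 under these scalings, 0 with the slide block (against 4.59%) and 1 with all sham arrays (2.5%, against 4.67%). At d4 the lower ones were 8, 2 and 10 under the same scalings, 1 in the Cy5 channel, 3 without the filter on dim probes (7.5%, against 3.53%), 9 within scanner 1 (22.5%, against 7.52%), 0 with the slide block (against 2.49%) and 1 with all sham arrays (2.5%, against 2.5%), and the higher ones were 0, 22 and 0 and, with the slide block, 3 (7.5%, against 4.56%). At d7, 7 were lower in the deposited values (17.5%, against 2.35%), 2 in the software ratio (5%, against 7.72%) and 1 in the Cy5 channel (2.5%, against 2.96%). Within scanner 1, 1 was lower (2.5%, against 0.597%), and with all sham arrays 6 (15%, against 3.17%). In the Cy5 channel 1 was higher (2.5%, against 3.66%). For the sublethal doses and against 6 Gy, calls were summed over time points, so that a member can count more than once. After 1 Gy, 10 calls were higher in the deposited values (7 different members). Of these, 7 were at d4 (17.5%, against 0.712% of all probes) and 3 at h2 (7.5%, against 0.432%). After 3 Gy, the 2 lower calls became 0 under each of the other 4 scalings, with the scanner or scan day as a block and with all sham arrays, and 1 without the filter and with the slide block. In the deposited values 8 calls were higher (5 members, with 5 calls at d4, 12.5%, against 0.323%). With all sham arrays 2 calls were higher, both of Lce1g. They were at d7 (2.63%, against 0.0859% of all probes) and at d21 (2.56%, against 0.0561%). After 6 Gy, 11 calls were higher in the deposited values (9 members, with 9 calls at d7, 22.5%, against 0.732%). Scanner 2 holds 1 sham array of h2, that of M002, with Sprr2h at 3.69. Its fits of h2 therefore set each dose against a lone array, and their counts are left out.

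Against 6 Gy, summed over h2, d4 and d7, 1 lower and 10 higher calls became 57 (24 members) and 0 in the deposited values, 22 and 43 in the software ratio, 4 and 0 with median centring and 14 and 3 in the Cy5 channel. Of all probes, 3.79 to 4.31% were lower in the deposited values at these times and 1.1 to 1.65% higher, and in the software ratio 11 to 22.9% and 14.2 to 18.2%. With median centring 0.884 to 24.4% were lower and 0.208 to 0.228% higher, and in the Cy5 channel 2.79 to 7.67% and 3.83 to 7.88%. The lower became 0 with the scanner as a block and with the mean of all probes, and the higher 6 with the slide block (3.14, 3.46 and 2.04% of all probes at h2, d4 and d7) and 7 with the mean of all probes, where Evpl at both times and Lor at h2 were no longer called. The 1 member whose 20 Gy effect differed between d7 and h2 became 0 in the deposited values, where 0% of all probes were called and the 20 Gy columns of h2 matched arrays of d7 best. It became 16 in the software ratio (40% lower, against 11.7%), 2 with median centring (5% higher, against 19.4%), 9 within scanner 1 (5% lower and 17.5% higher, against 6.62% and 6.64%), 0 with the slide block, 3 with all sham arrays (7.5% lower, against 4.42%) and 0 with the mean of all probes.

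Single genes changed direction as follows. In the deposited values and with median centring, at h2, Lor was -1.58 and -1.05 (and -0.26 in the Cy5 channel), Cnfn -1.09 and -1.49, Evpl -1.78 and -1.72 and Sprr2b -0.21 and -0.68. At d4 these pairs were -1.59 and -0.25 for Lor (-0.65 in the Cy5 channel), -1.59 and -0.14 for Evpl and -1.2 and -0.04 for Lce1a1. In the deposited values alone, Cnfn was -0.73, Calm4 -1.74, Sprr1a -1.84 and Lce1d -0.68 at d4, and Lor -1.22 at d7. In the software ratio, Flg2 was 1.43, Calm4 2.19, Calml3 1.23, Lce1c 1.85 and Lce1e 2.18 at h2, and Flg2 1.88 and Calml3 2.53 at d4. After 3 Gy at d4, Tgm1 was 0.66 in the deposited values, 0.29 in the software ratio and 0.01 in the Cy5 channel, and Tgm5 0.53 in the deposited values and 0.07 in the Cy5 channel. Against 6 Gy the deposited values gave -0.22 for Sprr2b, -2.14 for Lor and -1.77 for Evpl at h2, and -1.7 for Lce1a1, -0.97 for Lce1d, -0.06 for Sprr2b, -2.08 for Lor, -1.71 for Evpl and -1.25 for Cnfn at d4. Lor was -0.16 and -0.25 with median centring and -0.77 and -1.17 in the Cy5 channel at these times, and Evpl -0.34 with median centring at d4. The change of Evpl from h2 to d7 was 0.75 with median centring and 0.31 in the deposited values, whose columns for 20 Gy at both times resemble arrays of d7. The cause was not tested. A further 46 values of single genes changed sign without being called under either setting, 98 kept their sign and lost a call, 67 gained one and 731 kept both.

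Leaving out each mouse in turn, the members lower after 20 Gy at h2 numbered 1 (without M022) to 3 and those higher 2 to 3. At d4 they numbered 0 to 4 and 3 to 6, and at d7 0 in all fits. After 1 and 6 Gy no fit called a member, and after 3 Gy 0 to 7 were lower (7 without M013) and 0 higher. Against 6 Gy 0 to 2 were lower and 7 to 12 higher, where 0.677 to 2.72% and 1.32 to 4.65% of all probes were at each time, and 0 to 1 differed between d7 and h2, where 3.62 to 6.46% of all probes did. A leave-one-out fit with 2 arrays in a group keeps a lone array, which was taken to vary like the other groups. Scanner 1 alone could be run for the sublethal doses at h2 and d4 only, with 1 irradiated array each. Such a fit describes a single biopsy, with its spread taken from other groups, so its counts of members are not given. The same holds for 20 Gy against 6 Gy within scanner 1, which has 1 array of 6 Gy at h2 and 1 at d4. Scanner 2 holds no 20 Gy array. For dim members at or near background, a fall has only a bound.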
